A study of Homo sapiens with 6 samples.

Results

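The cyclin D, CDK4/6 and RB-E2F switch was followed in RNA of U87 cells, an established human glioblastoma line, with and without an shRNA against PRMT6. The switch was taken as 10 genes of the 60612 in the deposited table, defined by their place in the pathway. They were chosen with earlier results of these data known. They are the D-type cyclins CCND1, CCND2 and CCND3, their kinases CDK4 and CDK6, the inhibitor CDKN2C, the pocket proteins RB1, RBL1 and RBL2, and the transcription factor E2F1. PRMT6 is an arginine methyltransferase. The study compared 3 libraries of cells that received a scramble control shRNA by lentivirus (NC) with 3 libraries of cells that received a PRMT6 shRNA by lentivirus (shPRMT6). Both groups were grown in DMEM with fetal bovine serum, and both carry a lentiviral shRNA, so no uninfected cells are in the comparison. The labels do not say which PRMT6 shRNA was used, or whether the numbers of the shPRMT6 libraries stand for replicates or for different shRNAs, and they were read as replicates. The knockdown was partial, since PRMT6 had 522, 606 and 449 counts in NC and 227, 282 and 355 in shPRMT6 (log2 fold change -0.87, SE 0.187, edgeR adjusted p = 0.0225). Without NC replicate 1, shPRMT6 replicate 1 or shPRMT6 replicate 2, the edgeR adjusted p of PRMT6 was 0.0613, 0.0588 or 0.0713.

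D-type cyclins bind CDK4 or CDK6 in the G1 phase of the cell cycle, and the active kinase phosphorylates the pocket proteins. Unphosphorylated pocket proteins hold E2F factors in check, and their phosphorylation releases E2F to turn on the genes of S phase, the gene of E2F1 among them. Proteins of the INK4 family, such as the product of CDKN2C, bind CDK4 and CDK6 and block them, and the loss of INK4 genes is common in glioblastoma.

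Each library held 56388161 to 75887696 counts in NC and 61805330 to 67630740 in shPRMT6. Mitochondrially encoded genes took between 7.06% and 7.85% of all reads counted in NC libraries and between 9.69% and 10.2% in shPRMT6 libraries, and the part of this difference in the results was not tested. U87 is known to have lost the INK4 locus of chromosome 9. Since this loss is common in glioblastoma, low counts there cannot tell U87 from other lines with it. CDKN2A had 0 to 2 counts, CDKN2B 0 to 4 and the neighbouring MTAP 10 to 33 in every library. Of 8 genes of the glioma and astrocyte lineage, 5 had a mean of at least 1 CPM (counts scaled by library size with TMM factors), S100B had no counts, and GFAP and SOX2 were below 1 CPM. Summed markers of endothelium stood at 2.61 to 3.70 CPM in NC and 4.02 to 5.96 CPM in shPRMT6, and those of neurons at 18.8 to 21.2 and 17.6 to 20.8 CPM. Among leukocyte and microglial markers PTPRC, AIF1, CD3E and CD68, CD68 alone had a mean of at least 1 CPM and AIF1 and CD3E had no counts, and their sum was 148 to 256 CPM in NC and 144 to 316 CPM in shPRMT6.

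In shPRMT6 the RNA of CCND1, CDK6 and E2F1 fell, while no tested gene of the switch was called higher. Of the 10 genes, 8 passed the filter on low counts and were tested by edgeR's quasi-likelihood test, and CCND2 and CDKN2C were not. An adjusted p under 0.05 was reached by 3 genes, all lower, where 9.06% of the 18106 genes tested were lower. None of the 8 was called higher, against 9.51% of all genes tested, and with only 8 genes this difference carries no weight. The median log2 fold change of the 8 was -0.23, and that of all genes tested was -0.01. The libraries of the groups did not overlap for 4 genes, all lower in shPRMT6 (CCND1, CDK6, E2F1 and RBL1), where 19.9% of all genes did so, and for 0 genes in the higher direction, against 20.3%. By the threshold of the study, an absolute log2 fold change above 1 with an unadjusted p under 0.05, CCND1 and CDK6 were past it, 2 of the 8, against 5.92% of all genes. In bulk RNA, fewer cells in a phase of the cell cycle and less RNA per cell cannot be told apart. The p-values measure the spread between these libraries, which the methods call independent replicates.

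**Figure D1:**
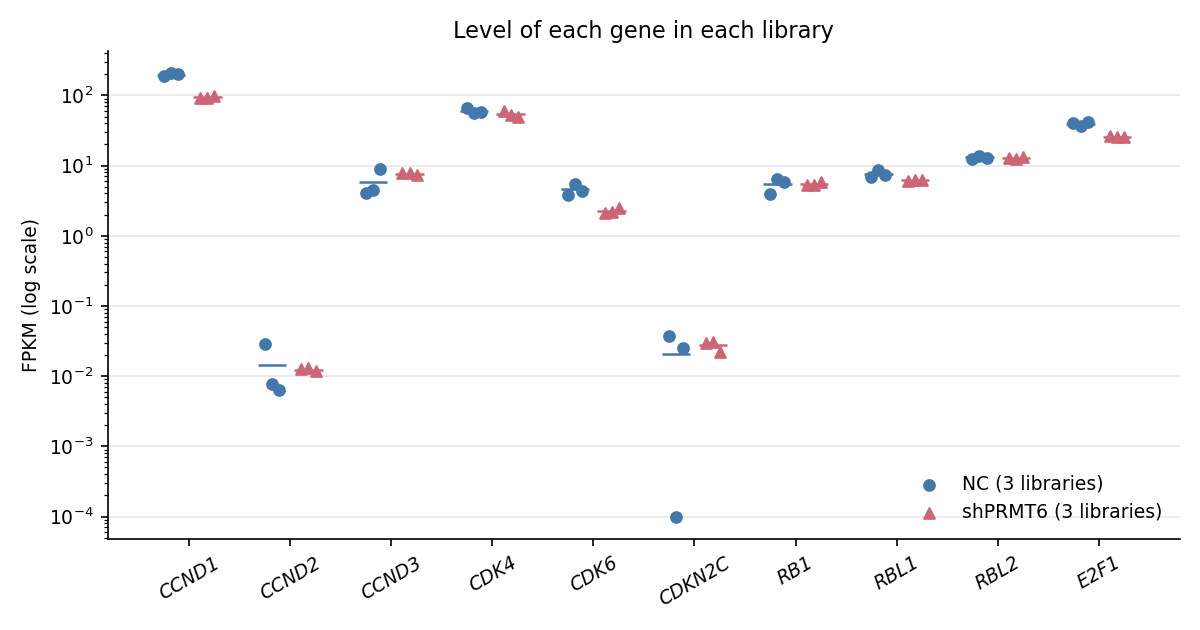
FPKM on a log axis for the 10 genes in each of the 6 libraries, with circles for NC, triangles for shPRMT6 and a line at each group's mean. The shPRMT6 points of CCND1, CDK6, E2F1 and RBL1 lie below all NC points, and the CDKN2C point at 0.0001 is the value listed for a library with no counts.

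CCND1 encodes cyclin D1 and was the most abundant RNA of the switch. Its gene (ENSG00000110092) spans 69641087 to 69654474 of chromosome 11 on the plus strand, in GRCh38 as all positions here. It stood at 1067, 1181 and 1115 CPM in NC and at 518, 520 and 559 CPM in shPRMT6. Every shPRMT6 library was below every NC library, and the libraries within a group were close to each other. The level in shPRMT6 was 47.5% of that in NC (log2 fold change -1.07, SE 0.0603, 95% confidence interval -1.22 to -0.93, edgeR adjusted p = 0.000357). CCND1 is one of the genes the study displayed for their change in these libraries, so its fall here is not independent of that choice. LTO1, on the opposite strand, covers 10.3% of the exonic bases of CCND1, and it had means of 13.1 CPM in NC and 15.2 CPM in shPRMT6. The library kit does not mark strand, so reads of the shared bases cannot be assigned to one of the genes.

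CCND3, which encodes cyclin D3, had a higher mean in shPRMT6 but did not pass the test. It lies on chromosome 6 from 41934933 to 42050357 on the minus strand. It stood at 28.5, 30.4 and 59.7 CPM in NC and at 53.3, 53.2 and 49.6 CPM in shPRMT6. NC replicate 3 was above all shPRMT6 libraries and the other NC libraries were below them, so the groups overlap. The log2 fold change was 0.40 (SE 0.281, 95% confidence interval -0.28 to 1.07, edgeR adjusted p = 0.384). The highest NC library was 2.10 times the lowest, a spread above that of 95.7% of 9527 genes with a mean of at least 10 CPM, while in shPRMT6 the same ratio was 1.07. Without NC replicate 3 the log2 fold change was 0.82 with an edgeR adjusted p of 0.00952, so that library decides the call.

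CCND2, which encodes cyclin D2, was near the limit of detection. Its raw counts were 16, 6 and 4 in NC and 8, 8 and 8 in shPRMT6, on chromosome 12 from 4273772 to 4305350. No difference was detectable at this depth. AC008012.1 on the same strand covers 13.8% of its exonic bases.

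Summed over the 3 D-type cyclin genes, FPKM, which scales counts to gene length, was 204 ± 11.6 (SD, n = 3) in NC and 102 ± 3.97 (SD, n = 3) in shPRMT6. The libraries of the groups did not overlap, and the exact permutation test over libraries gave p = 0.1, the smallest that 3 against 3 libraries allow. CCND1 made up 97.8%, 97.9% and 95.8% of the sum in NC and 92.2%, 92.2% and 93.2% in shPRMT6. The share of CCND3 was 2.15%, 2.08% and 4.23% in NC and 7.83%, 7.78% and 6.82% in shPRMT6. Cyclin D1 RNA was the main D-type cyclin RNA in all 6 libraries.

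CDK6 fell by about the same factor as CCND1. It encodes a catalytic partner of the D-type cyclins and lies on chromosome 7 from 92604921 to 92836594 on the minus strand (ENSG00000105810). It stood at 55.9, 80.0 and 63.3 CPM in NC and at 30.4, 31.5 and 35.5 CPM in shPRMT6. All shPRMT6 libraries were below all NC libraries, and NC replicate 2 was the highest of the 6. The level in shPRMT6 was 48.9% of that in NC (log2 fold change -1.03, SE 0.144, 95% confidence interval -1.38 to -0.69, edgeR adjusted p = 0.00531). Without NC replicate 2 the log2 fold change was -0.88 and without shPRMT6 replicate 1 it was -0.99, so in both cases CDK6 stood inside the threshold of the study while its edgeR adjusted p remained under 0.05 (0.00634 and 0.0271). On log2(FPKM + 1) without a filter, limma gave -0.77 with an adjusted p of 0.113.

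CDK4, the other catalytic partner, lies on chromosome 12 from 57747727 to 57756013 on the minus strand (ENSG00000135446). It stood at 243, 206 and 209 CPM in NC and at 220, 192 and 179 CPM in shPRMT6. The groups overlap. Its log2 fold change was -0.15 (SE 0.102, 95% confidence interval -0.40 to 0.09, edgeR adjusted p = 0.363), an interval that does not reach the fall of CDK6. TSPAN31 on the opposite strand covers 43.2% of the exonic bases of CDK4, and it had means of 17.1 CPM in NC and 23.1 CPM in shPRMT6.

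CDK4 was the main kinase RNA of the pair in every library. CDK6 made up 5.50%, 8.96% and 7.12% of the summed FPKM of CDK4 and CDK6 in NC and 3.37%, 3.97% and 4.77% in shPRMT6. The shares did not overlap between the groups. The log2 ratio of CDK4 to CDK6 counts was 1.73 ± 0.379 (SD, n = 3) in NC and 2.60 ± 0.261 (SD, n = 3) in shPRMT6, a difference of 0.87 with p = 0.1 by the exact permutation test. The summed FPKM of the D-type cyclins per summed FPKM of CDK4 and CDK6 was 2.76, 3.47 and 3.37 in NC and 1.60, 1.83 and 2.07 in shPRMT6.

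**Figure D2:**
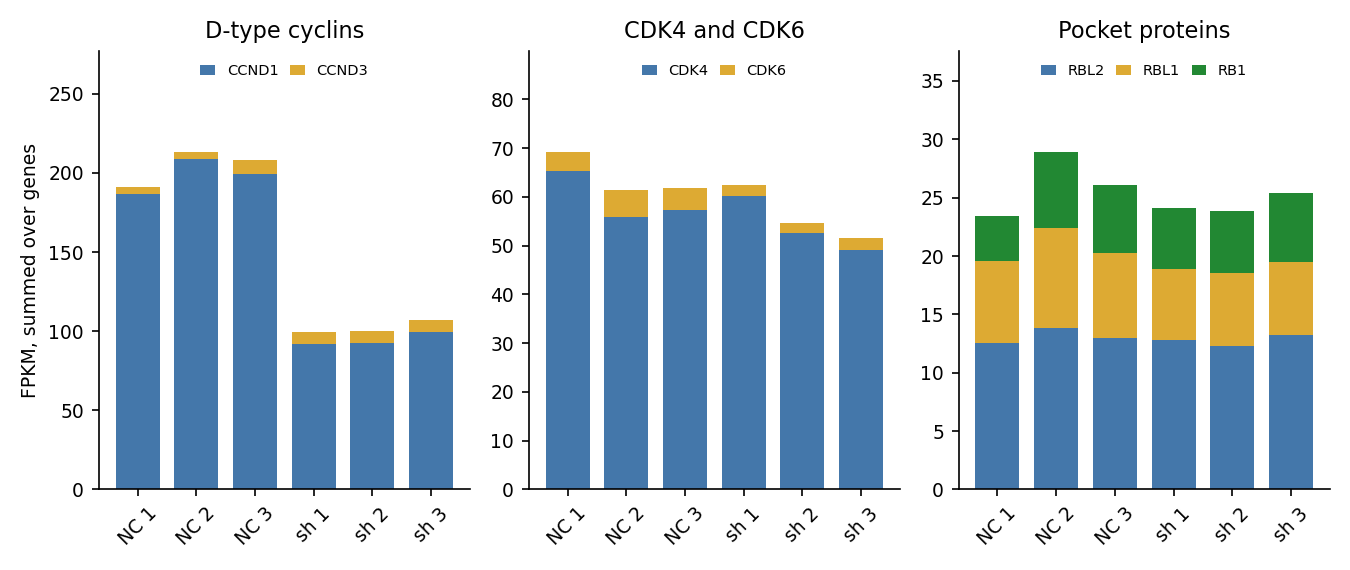
FPKM summed over the genes of each panel, as bars from 0, for the 3 NC and 3 shPRMT6 (sh) libraries, with the colours marking the genes. The cyclin bars run from 191 to 213 in NC and from 99.8 to 107 in shPRMT6, while the kinase bars (51.5 to 69.2) and the pocket protein bars (23.4 to 28.9) of the groups overlap. CCND2 is too low to be drawn.

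CDKN2C encodes p18, an INK4 inhibitor of CDK4 and CDK6, on chromosome 1 from 50960745 to 50974633. Its raw counts were 8, 0 and 6 in NC and 7, 7 and 6 in shPRMT6. A difference was not detectable at this depth. With CDKN2A and CDKN2B at 0 to 4 counts, the INK4 gene with the highest FPKM was CDKN2D, which encodes p19 and is named here after its values were seen. It stood at 34.6, 31.5 and 3.72 CPM in NC and at 25.2, 1.69 and 24.8 CPM in shPRMT6. In both groups 1 library was several-fold below the others.

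CDKN1A, which encodes the inhibitor p21, fell from 445, 369 and 449 CPM in NC to 270, 258 and 253 CPM in shPRMT6 (log2 fold change -0.69, SE 0.0866, edgeR adjusted p = 0.00363). The groups did not overlap. CDKN1B, which encodes p27, stood at 65.5, 63.9 and 60.7 CPM in NC and at 72.3, 69.4 and 71.4 CPM in shPRMT6. Its libraries did not overlap either, and its log2 fold change was 0.16 (SE 0.0610, edgeR adjusted p = 0.116). DESeq2 on the same genes gave an adjusted p of 0.0163 for CDKN1B and DESeq2 on all genes gave 0.199.

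Of the pocket protein genes, none passed the test. RB1, which encodes the retinoblastoma protein, lies on chromosome 13 from 48303726 to 48599436 on the plus strand (ENSG00000139687). It stood at 30.2, 49.9 and 44.4 CPM in NC and at 40.1, 40.4 and 44.9 CPM in shPRMT6. NC replicate 1 was the lowest and NC replicate 2 the highest of the 6, so the shPRMT6 libraries lay inside the NC range. Between groups RB1 differed by 0.01 on the log2 scale (SE 0.182, 95% confidence interval -0.42 to 0.45, edgeR adjusted p = 0.975). Its spread within NC, 1.65 times from lowest to highest, was above that of 91.0% of the 9527 genes.

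RBL1, which encodes p107, lies on chromosome 20 from 36996349 to 37095995 on the minus strand (ENSG00000080839). It stood at 49.9, 60.4 and 50.6 CPM in NC and at 42.6, 44.1 and 43.7 CPM in shPRMT6. All shPRMT6 libraries were below all NC libraries, but the difference missed the threshold (log2 fold change -0.30, SE 0.0916, 95% confidence interval -0.52 to -0.08, edgeR adjusted p = 0.0655). DESeq2 on the genes that passed the filter gave an adjusted p of 0.006, and DESeq2 on all genes gave 0.0587.

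RBL2, which encodes p130, the pocket protein best known from resting cells, lies on chromosome 16 from 53433977 to 53491649 on the plus strand (ENSG00000103479). It stood at 109, 120 and 111 CPM in NC and at 110, 106 and 114 CPM in shPRMT6. The groups overlap, and the log2 fold change was -0.05 (SE 0.0631, 95% confidence interval -0.20 to 0.10, edgeR adjusted p = 0.656). AKTIP and AC007342.6, on the opposite strand, cover 18.2% of its exonic bases.

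On the scale of FPKM, RBL2 was the most abundant pocket protein RNA in every library. RBL1 made up 29.8%, 29.5% and 27.7% of the summed FPKM of the 3 genes in NC and 25.1%, 26.2% and 24.5% in shPRMT6, with no overlap between the groups. The log2 ratio of RBL1 to RBL2 counts was -1.09 ± 0.0848 (SD, n = 3) in NC and -1.34 ± 0.0650 (SD, n = 3) in shPRMT6. The difference was -0.25 with p = 0.1 by the exact permutation test. In all, 4 such ratios were compared. The ratio of CCND1 to CCND3 differed by -1.56 (log2, exact permutation p = 0.1, groups not overlapping), and that of CCND2 to CCND3 by -0.34 (log2, exact permutation p = 0.7). Adjusted over the 4 ratios by the Benjamini-Hochberg method, the exact p of 0.1 became 0.133.

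E2F1, the best-known activating E2F factor, fell with a small spread. It lies on chromosome 20 from 33675683 to 33686404 on the minus strand (ENSG00000101412). It stood at 129, 119 and 131 CPM in NC and at 85.1, 81.0 and 80.2 CPM in shPRMT6. No library of the groups overlapped. The level in shPRMT6 was 65.1% of that in NC (log2 fold change -0.62, SE 0.0641, 95% confidence interval -0.77 to -0.47, edgeR adjusted p = 0.00199). E2F1 kept its call under all 16 alternatives.

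**Figure D3:**
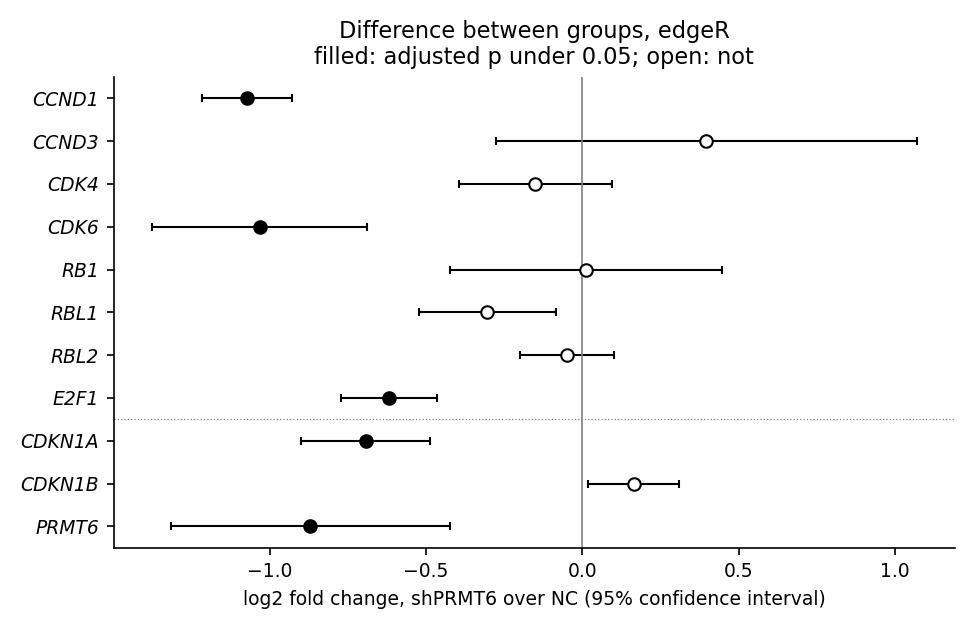
Log2 fold change of shPRMT6 over NC with a 95% confidence interval derived from the edgeR test. Shown are the 8 tested genes of the switch and, under the dotted line, CDKN1A, CDKN1B and PRMT6. Filled points have an adjusted p under 0.05, and the intervals of CCND3 (-0.28 to 1.07) and RB1 (-0.42 to 0.45) are the widest among the 8.

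The promoters of E2F1 and RBL1 are shown because their windows alone, among those of the 8 genes with a promoter entry, hold a word of the E2F motif. The promoter was taken as 250 bases before to 50 bases after the annotated start, from RefSeq on GRCh38.p14. The words searched on both strands were TTTCCCGC, TTTCGCGC, TTTGCCGC and TTTGGCGC. Words of 8 bases can overlap each other in part, and none did in these windows. Capitals mark the words. The E2F1 window is chr20:33686336-33686635 and the RBL1 window is chr20:37095948-37096247, both read on the minus strand.
E2F1: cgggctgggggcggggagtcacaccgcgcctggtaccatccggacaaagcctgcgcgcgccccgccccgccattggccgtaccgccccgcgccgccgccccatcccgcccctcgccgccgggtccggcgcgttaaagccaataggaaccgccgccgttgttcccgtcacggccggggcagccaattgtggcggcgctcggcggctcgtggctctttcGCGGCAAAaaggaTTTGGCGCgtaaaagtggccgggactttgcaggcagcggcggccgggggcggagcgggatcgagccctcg
RBL1: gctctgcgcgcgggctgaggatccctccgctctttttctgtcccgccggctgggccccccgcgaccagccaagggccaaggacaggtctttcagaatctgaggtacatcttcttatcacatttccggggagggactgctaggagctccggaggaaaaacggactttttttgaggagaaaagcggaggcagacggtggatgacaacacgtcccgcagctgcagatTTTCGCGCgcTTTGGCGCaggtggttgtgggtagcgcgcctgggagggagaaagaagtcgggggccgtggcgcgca
In E2F1 the words are TTTGCCGC, on the other strand, and TTTGGCGC, starting 33 and 20 bases before the annotated start. In RBL1 they are TTTCGCGC and TTTGGCGC, starting 26 and 16 bases before it. At least 1 word was in 3.31% of 35116 windows of this length, and 2 or more words in 0.145%. By gene, 3.99% of 27305 genes had a word, against 14 of the 25 genes of the S phase list with an entry (56%). The windows of CDK4, CDK6, CCND3, CDKN2C, RB1 and RBL2 held none of these words. The only RB1 window, chr13:48476200-48476499, lies inside the gene, far from its first base at 48303726. A match is a description of sequence and no evidence of binding. CCND1 and CCND2 were not searched, and neither was the sequence around the first base of RB1.

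On the scale of FPKM, the order of levels in NC was CCND1, CDK4, E2F1, RBL2, RBL1, CCND3, RB1, CDK6, CDKN2C and CCND2. The means ran from 198 for CCND1 through 59.5 for CDK4, 39.5 for E2F1 and 13.1 for RBL2 to 4.57 for CDK6, and CDKN2C and CCND2 were below 0.1. Of 9 pairs of neighbours in this order, 5 had no overlap between their libraries, and the neighbours from RBL1 down to CDK6 and the pair of CDKN2C and CCND2 overlapped. In shPRMT6 CCND3 stood above RBL1 and the order was otherwise the same, with no overlap in any of the 9 pairs. The means there were 94.6 for CCND1, 54.0 for CDK4 and 25.8 for E2F1.

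Other genes of the pathway were taken from 8 lists of 100 genes in all, 95 of them tested. Of these, 47 were called lower and 6 higher, and the median log2 fold change was -0.41. For these lists, fell and rose mean called at an adjusted p under 0.05. Counts of the lists are read beside the 9.06% of all genes tested that were lower and the 9.51% that were higher. The lists hold genes with related regulation and were chosen with earlier results known.

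Downstream of the switch, 25 of 30 S phase genes known as E2F targets fell and none rose, with a median log2 fold change of -0.70. TK1, thymidine kinase, fell by 1.21 on the log2 scale (edgeR adjusted p = 0.00126). ORC1, a subunit of the origin recognition complex, fell by 1.03 (log2, edgeR adjusted p = 0.00114), and MCM7, of the replicative helicase, by 0.79 (log2, edgeR adjusted p = 0.00153).

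Among the other E2F and DP genes, 8 of 10 were tested, 5 fell and none rose. E2F2, an activator like E2F1, stood at 26.6, 22.7 and 23.6 CPM in NC and at 10.9, 11.1 and 10.7 CPM in shPRMT6 (log2 fold change -1.16, SE 0.0959, edgeR adjusted p = 0.00114). TFDP1, a DP partner with which E2F factors bind DNA, fell by 0.76 (log2, edgeR adjusted p = 0.00234). E2F8, an atypical repressor, fell by 0.75 (log2, edgeR adjusted p = 0.00491), and E2F3 by 0.49 (log2, edgeR adjusted p = 0.00968). All of the activator genes, E2F1, E2F2 and E2F3, therefore fell in these libraries.

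Of the cyclin E, cyclin A, CDK2 and CDC25A list, 5 of 6 genes were tested and 4 fell. CCNA2, the S phase cyclin, fell by 0.85 (log2, SE 0.0565, edgeR adjusted p = 0.000581). CDC25A, the phosphatase that activates CDK2, fell by 0.95 (log2, edgeR adjusted p = 0.00468), CCNE2 by 0.75 (log2, edgeR adjusted p = 0.00338) and CDK2 by 0.57 (log2, edgeR adjusted p = 0.0115). INTS8 and AC087752.4 cover 37.1% of the exonic bases of CCNE2 on the opposite strand, and AC025162.1 and PMEL cover 16.8% of those of CDK2. Of the 8 genes of the MuvB core, MYB and FOXM1, 3 fell, namely MYBL2 by 0.64, MYBL1 by 0.73 and FOXM1 by 0.83 (log2, edgeR adjusted p = 0.00114, 0.00641 and 0.0128). ITFG2 on the opposite strand covers 15.9% of the exonic bases of FOXM1.

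Among 15 factors known to act on D-type cyclin genes, 4 fell and 2 rose. ETS1 fell by 0.92, LEF1 by 0.76, FOSL1 by 0.46 and ETS2 by 0.41 (log2, edgeR adjusted p = 0.00144, 0.00521, 0.00224 and 0.00458). STAT3 rose by 0.83 and JUN by 0.51 (log2, edgeR adjusted p = 0.000822 and 0.00148). MYC, named here after its values were seen, stood at 109, 14.8 and 103 CPM in NC and at 8.84, 81.4 and 76.5 CPM in shPRMT6. In both groups 1 library was several-fold below the others. CCND1 in those libraries stood with its group, and a link between MYC and CCND1 was not tested.

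Among 14 genes of cyclin D-CDK4/6 assembly and turnover, 2 fell and 3 rose. The chaperone genes HSP90AB1 and HSP90AA1 fell by 0.35 and 0.31, and CUL4B and GSK3B, of cyclin D turnover, rose by 0.38 and 0.30 (log2, edgeR adjusted p = 0.0036, 0.041, 0.0266 and 0.0454). CRYAB rose by 1.60 (log2, edgeR adjusted p = 0.00457) from a mean of 0.791 CPM. On the opposite strand, HSPB2 and HSPB2-C11orf52 cover 20.6% of its exonic bases. Without shPRMT6 replicate 1, 2 or 3 the counts were 1 lower and 1 higher in each case, without NC replicate 1 they were 1 and 2, and without NC replicate 3 they were 2 and 1.

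Of 12 corepressor and phosphatase partners of RB, SIN3A, HDAC2 and PPP1CA fell by 0.36, 0.24 and 0.64 and HDAC1 rose by 0.22 (log2, edgeR adjusted p = 0.021, 0.0274, 0.0353 and 0.0387). Most of these calls were lost when a library was left out. The count of lower genes was 0 without shPRMT6 replicate 1, 2 or 3 and 1 without NC replicate 1 or 3. It stayed at 3 without NC replicate 2. The count of higher genes was 0 with any of the 6 libraries left out. CARNS1, RAD9A and TBC1D10C on the opposite strand cover 26.9% of the exonic bases of PPP1CA. Among the other CDK inhibitors, 4 of 6 were tested, and CDKN1A alone passed the test.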

How the data were processed

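For each of 3 NC and 3 shPRMT6 libraries, grouped by the labels, the authors deposited 1 raw count per gene, not normalized, and 1 FPKM value, scaled to gene length and library total and set to 0.0001 where the count is 0. The submitters' processing notes name HISAT2, HTSeq 0.13.5 and GRCh38. The annotation release and the strand setting are not given in the sources used here.

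GENCODE 29 on GRCh38 held 58394 of the 60612 genes and gave coordinates and exon overlaps. The quasi-likelihood test of edgeR 4.0.16 in R 4.3.3 was run with TMM scaling, the filter of edgeR by group and Benjamini-Hochberg adjustment over 18106 genes. Errors are SD over 3 libraries unless named SE. The edgeR test reports no SE, so SE was taken as the absolute log2 fold change over the square root of the F statistic. The 95% confidence intervals were built from this SE with a quantile of the t distribution. Ratios within libraries were compared by an exact two-sided permutation test in SciPy 1.17.1.

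The members and lists were chosen with earlier results of these data known. The genes named are PRMT6, the 10 genes of the switch, CDKN1A, CDKN1B, CDKN2A and CDKN2B, and from each other list up to 4 genes per direction with the smallest p among those with an adjusted p under 0.05. Any other gene was named after its values were seen, or for an exon overlap or a marker check. For 1 gene that the rule names, no values are given.

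DESeq2 1.42.0 replaced the scaling, the dispersion model and the test together. Alternatives in scaling alone were library totals and upper quartile factors. Alternatives in the filter were 10 counts required in all libraries, or 1 count in any. The others were a replicate block, limma 3.58.1 on the log2 of FPKM (pseudocount 1 or 0.1 for genes whose mean FPKM was 1 or more, and pseudocount 1 with no filter), and each library left out in turn. DESeq2 was first run on all genes and later, to change 1 choice at a time, on the genes that passed the filter. Both runs are given, and the run on the filtered genes was added after results had been seen.

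The fits were tested on simulated data. Early rounds missed the limits set for them at the smaller of the effect sizes tried, where edgeR missed many of the genes changed, and DESeq2 also made more false calls than its limit allowed. The effects were then made larger and the limit on false calls was loosened. It was later set back, for edgeR and limma at the larger size only, and DESeq2 was left without one. A gene that was not called may therefore still differ by an amount of that smaller size. In these simulations DESeq2 made false calls well above its nominal rate. The simulated counts followed the dispersion trend that edgeR fitted to the filtered genes, a setting that can favour edgeR. They therefore cannot rank the 2 tools on the deposited data. The calls of DESeq2 stand beside those of edgeR, the main test, and not in their place.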

Additional observations from a re-analysis of the deposited data

How the results depend on the processing

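Of 176 values of single genes under the alternatives, 0 reversed direction past the threshold, 7 lost their call and 3 gained one. CCND1 and E2F1 kept their calls under all 16 alternatives, CDK6 under 15. Calls were gained by CCND3 without NC replicate 3, and by RBL1 and CDKN1B with DESeq2 on the filtered genes, a run added after results had been seen. PRMT6 lost its call in 5 alternatives, with edgeR adjusted p up to 0.0803 and limma 0.158. With a library left out, the count of higher genes of the switch ran from 0 to 1 and that past the threshold of the study from 1 to 2. The latter was 1 with limma at each of the 3 FPKM settings. Of the other pathway genes, 53 were called and 26 by limma with pseudocount 1 and no filter on FPKM, a fit over far more genes. The ratio of CCND2 to CCND3 rests on 4 to 16 counts of CCND2 and turned from -0.34 to 0.52 without NC replicate 1.

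Deviations from the group means correlated at -0.000606, -0.0452 and -0.068 over 10051 genes for equal replicate numbers. For unequal numbers the correlations ran from -0.0218 to 0.0656. No pairing by equal numbers is visible in these values, but they cannot show whether the libraries were prepared in pairs. With a replicate block, CCND1 stood at -1.07, CDK6 at -1.02 and E2F1 kept its call, 43 of the other pathway genes were called, the RB partner list had 0 lower and 0 higher genes and the assembly and turnover list 1 and 1, and PRMT6 lost its call (-0.88, edgeR adjusted p = 0.0803). The ratios within libraries gave an exact sign-flip p of 0.25 at the smallest, which is the lowest value that 3 pairs allow. The 3 libraries a group limit the unpaired exact permutation test to p = 0.1, and counts under 20 limit CCND2 and CDKN2C.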
